A study of Mus musculus with 32 samples.

Results

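The 9 genes examined make, break down, bind or respond to retinoic acid: Aldh1a1, Aldh1a2 and Aldh1a3 (synthesis), Cyp26a1 and Cyp26b1 (breakdown), Dhrs3 (return of retinal to retinol), Crabp1 and Crabp2 (binding in the cell) and Rarb (a receptor). They were chosen by name and role, with earlier results of these data known, and all 9 have a row among the 55492 gene rows of the deposited table. The series measured polyadenylated RNA in mouse embryonic stem cells, sampled as day 0, and in retinal organoids grown from such cells, sampled at days 2, 4 and 6. There were 4 kinds of culture with 2 libraries at each of 4 days, which gave 16 groups and 32 libraries. WT was the Rx:GFP line, and KO was a line with Mettl3 knocked out, Mettl3 being the gene of the enzyme subunit that writes N6-methyladenosine on RNA. The other two kinds were KO cells overexpressing METTL3 joined to a domain that the labels name GRBD. That fusion is labelled cytosolic without dexamethasone (Dex, a synthetic glucocorticoid) and nuclear with Dex at 10 µM. All organoids, controls included, were grown with AGN at 0.1 µM, while no AGN value is given for day 0. AGN is a code prefix shared by several synthetic ligands of retinoid receptors, and the labels do not say which one was used. The labels do not give the number of clones behind a line. The day 0 fusion samples with Dex are labelled as Dex treated, although the treatment protocol lists Dex only for 2, 4 and 6 days. No WT or KO culture received Dex, so the move of the fusion protein and the exposure to Dex itself cannot be told apart.

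Retinoic acid is made from vitamin A in 2 steps, from retinol to retinal and from retinal to retinoic acid, and the second step is carried out by the Aldh1a enzymes. It enters the nucleus with binding proteins such as Crabp2, acts through receptors of the Rar and Rxr families on target genes, and is cleared by Cyp26 enzymes. Many genes of the pathway are themselves targets of the receptors, Cyp26a1 and Rarb among them. In the developing eye, Aldh1a1 and Aldh1a3 are known for their expression in opposite dorsal and ventral parts of the retina, and Aldh1a2 for its expression in the surrounding mesenchyme and early optic vesicle.

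The receptors bind direct repeats of a 6-base half-site, and the promoters of Rarb and Cyp26a1 are shown because they are the members whose windows held the repeat with a spacer of 5. Promoter windows of RefSeq (GRCm38.p6, 250 bases before to 50 after the start) matched 7 of the 9 members. The half-site searched was AGGTCA, in which the first base could also be G and the third also T, on both strands, in direct repeat with spacers of 1, 2 or 5 bases. The 150 bases before the start that RefSeq lists for each gene follow, 5′ to 3′ on the strand of the gene, with the half-sites of the repeat in capitals. Rarb lies on the minus strand and its window is chr14:16575477-16575626, and Cyp26a1 lies on the plus strand and its window is chr19:37697658-37697807. The Rarb window lies inside the span that GENCODE annotates for the gene, far downstream of the outermost start of that span, so it precedes an internal start.
Rarb: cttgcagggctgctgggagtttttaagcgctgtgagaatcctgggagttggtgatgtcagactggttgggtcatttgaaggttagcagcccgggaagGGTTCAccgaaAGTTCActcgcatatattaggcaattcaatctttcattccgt
Cyp26a1: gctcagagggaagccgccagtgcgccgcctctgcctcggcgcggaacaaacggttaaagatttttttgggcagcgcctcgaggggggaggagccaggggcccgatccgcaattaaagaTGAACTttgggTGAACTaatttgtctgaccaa
In Rarb the repeat began 53 and ended 37 bases before the start, on the strand of the gene. In Cyp26a1 it lay on the opposite strand, 32 to 16 bases before the start, so its half-sites read there as their reverse complement. This repeat was found in 32 of all 32851 windows (0.097%). Counted by gene, it was found in 31 of 27025 genes and in 2 of the 7 members with a window. The repeat with a spacer of 1 was found in 0.222% of all windows and that with a spacer of 2 in 0.268%. By gene these were 71 and 84 of the 27025, and 0 of the 7 members each. A match of letters is a description and shows no binding.

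Expression is given as FPKM, fragments per kilobase of transcript per 1000000 mapped fragments, which allows levels of different genes to be set side by side. The depth of a library, worked out from the smallest spacing of its FPKM values, ranged from 28.7 to 55.4 M fragments (M for a unit of 1000000) with a median of 38.2 M. At these depths 3 fragments on a transcript of 2 kb equal 0.032 to 0.062 FPKM, so levels below about 0.1 FPKM rest on few fragments. Changes were tested on log2(FPKM + 1) with limma over 16276 genes, and the word called stands for an adjusted p (Benjamini-Hochberg) under 0.05. The pseudocount of 1 shrinks the change of genes below 1 FPKM. Mettl3 itself, at 32.5 to 41.2 FPKM in WT and 34.9 to 43.8 FPKM in KO, did not show the knockout at the level of RNA, and KO is known from the labels alone. Exons of Mettl3 overlap those of Tox4 on the opposite strand over 933 bases, Tox4 reached 19.2 FPKM, and the strand setting of the counting is not given in the sources used here. Whether the 2 libraries of a group came from separate cultures is not stated, so p-values measure the spread between these libraries, which may be technical. In bulk RNA, fewer cells of a type and less RNA per cell cannot be told apart.

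Each role of the pathway had its own course. The synthesis genes were low through day 4, apart from Aldh1a2 in the fusion with Dex at day 4, and each had its highest level in WT at day 6. Cyp26a1 was on from day 2 in WT. In KO and in the fusion, without and with Dex, it appeared as a single peak at day 4, which was lower with Dex. Crabp2 was the most abundant member from day 4 on and climbed at every step in every line. Rarb and Cyp26b1 stayed below 1 FPKM in every library.

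**Figure D1:**
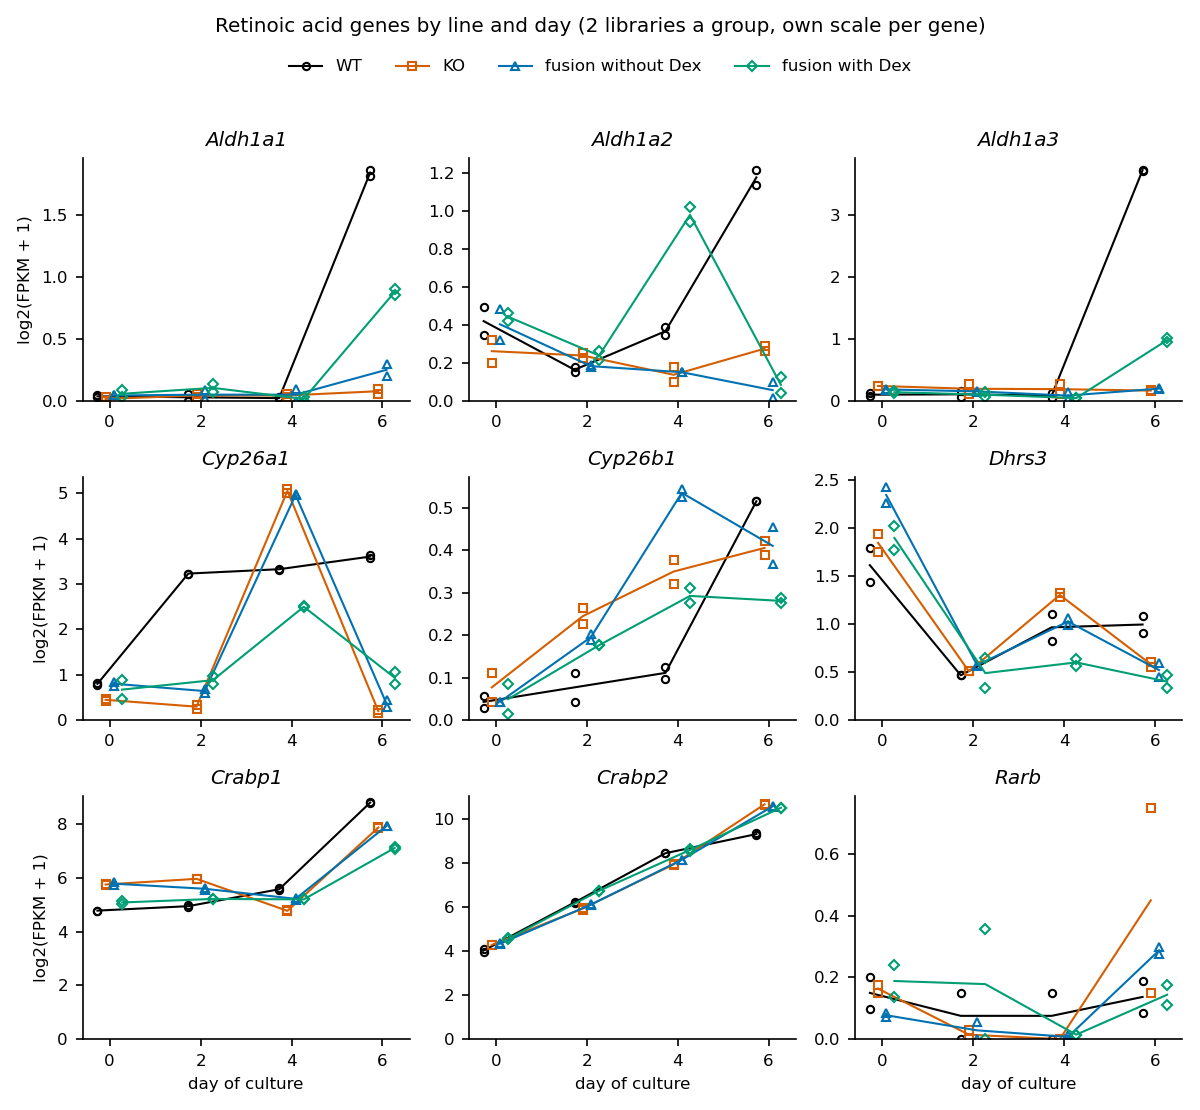
Level of each of the 9 members, as log2(FPKM + 1), against day of culture, with each gene on its own vertical scale. Points are single libraries, lines join the means of 2 libraries, and colours mark the 4 kinds of culture. The 3 Aldh1a genes were highest in WT at day 6. Cyp26a1 peaked at day 4 in KO and in the fusion, where the peak was lower with Dex than without.

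Aldh1a3 (chr7:66390890-66427517, minus strand), an enzyme that oxidises retinal to retinoic acid, lay between 0.03 and 0.11 FPKM in WT from day 0 to day 4. At day 6 it stood at 12.1 and 12.2 FPKM in WT, 0.11 and 0.13 in KO, 0.14 and 0.15 in the fusion without Dex, and 0.92 and 1.02 in the fusion with Dex. Both WT libraries were far above all others, both Dex libraries lay between, and no KO library at any day exceeded 0.21 FPKM. The WT mean was 101 times the KO mean at day 6, a change of −3.56 in KO (SE 0.06). The Aldh1a genes entered the tests through WT at day 6, the group where they are high, so their differences from WT at that day had to arise and are given with no p. With Dex the mean was 6.69 times that without (change 0.78, SE 0.06, adjusted p = 1.03e-08) and 7.98% of the WT mean (change from WT −2.74).

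Aldh1a1 (chr19:20492715-20643465, plus strand), the second of these enzymes, was at or below 0.1 FPKM in every library of days 0 to 4. Its day 6 values were 2.53 and 2.65 FPKM in WT, 0.04 and 0.07 in KO, 0.15 and 0.23 in the fusion without Dex, and 0.81 and 0.87 with Dex. The order of the 4 kinds of culture was that of Aldh1a3, and none of them overlapped. For Aldh1a3, however, the fusion without Dex was not called different from KO at that day (change 0.03, adjusted p = 0.734). The change of Aldh1a1 from WT to KO was −1.77 (SE 0.05), with a WT mean 47.1 times the KO mean. Dex changed it by 0.63 (SE 0.05, adjusted p = 1.51e-08), to 32.4% of the WT mean. The fusion without Dex differed from KO by 0.17 (adjusted p = 0.0108), a call lost without the first KO library (0.15, adjusted p = 0.0748) or the second library of the fusion (0.13, adjusted p = 0.122).

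Aldh1a2 (chr9:71215789-71296243, plus strand), the third, followed another course. In WT it was listed at 0.27 and 0.41 FPKM at day 0, 0.13 and 0.11 at day 2, 0.31 and 0.27 at day 4, and 1.33 and 1.20 at day 6. In the fusion with Dex it was listed at 0.34 and 0.38 FPKM at day 0, 0.20 and 0.16 at day 2, 1.03 and 0.92 at day 4, and 0.09 and 0.03 at day 6. WT was therefore highest at day 6 and the fusion with Dex at day 4, while KO and the fusion without Dex stayed at or below 0.40 FPKM at all days. At day 4 the fusion with Dex was above that without by 0.83 (SE 0.07, adjusted p = 1.01e-08), with a ratio of means of 8.86, and above WT by 0.61 (adjusted p = 3.85e-07). At day 6 it was below WT with a change of −1.10, and KO was below WT with a change of −0.90. At that day the fusion had 0.01 and 0.07 FPKM without Dex, which overlaps the range with Dex.

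**Figure D2:**
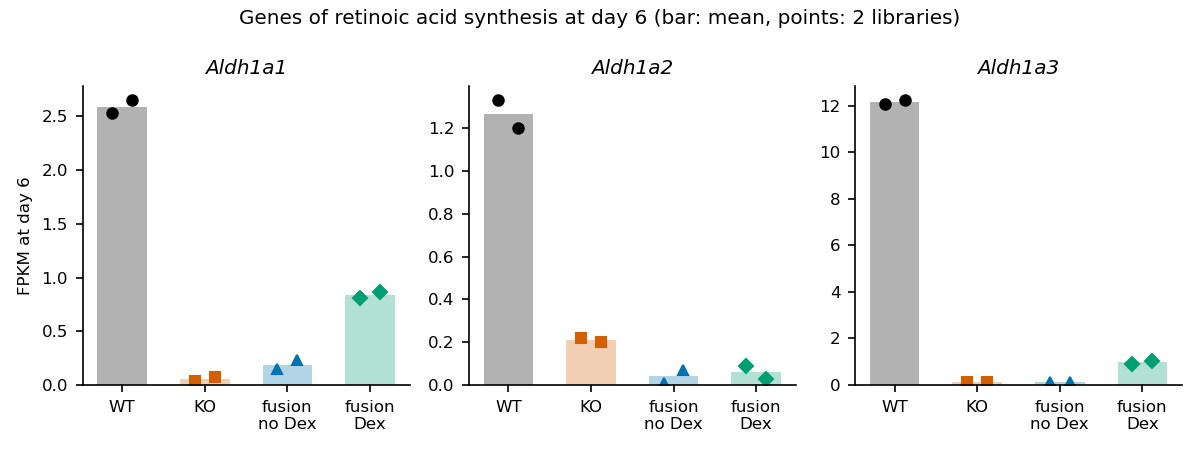
FPKM of the 3 Aldh1a genes at day 6, each on its own linear scale from 0, with bars for the mean of 2 libraries and points for the libraries. WT was highest for all 3 genes, and the fusion with Dex held an intermediate level of Aldh1a1 and Aldh1a3 but not of Aldh1a2.

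Markers of several cell types moved at day 6 beside the synthesis genes. Of 10 eye-field markers, 6 were lower and 2 higher in KO than in WT at day 6 (65.1% of all tested genes were called), and 8 were higher and 1 lower with Dex than without (42.7% of all genes). Aldh1a1 and Aldh1a3 were higher with Dex as well, while Aldh1a2 was not called (change 0.03, adjusted p = 0.794). The summed level of the 10 eye-field markers at day 6 was 848 to 884 FPKM in WT and 534.9 to 535.9 in KO. In the fusion it was 421.7 to 422.1 without Dex and 654.6 to 655.6 with Dex. Six6, a homeobox gene of the retina and one of the 10, was at 70.3 and 69.0 FPKM in WT, 0.02 in both KO libraries, 0.01 in both libraries without Dex, and 6.66 and 6.13 with Dex. Pigment cell markers were lower in KO in 4 of 4 tested cases, with sums of 16.4 to 17.9 FPKM in WT and 2.25 to 2.34 in KO. Telencephalon markers were lower in 3 and higher in 1 of 4, with sums of 97.9 to 103 FPKM in WT and 11.8 to 14.0 in KO. Midbrain and hindbrain markers were lower in 3 and higher in 1 of 5, with 43.3 to 44.2 FPKM in WT and 4.20 to 4.24 in KO. With Dex, 4 of 4 pigment markers and 1 of 4 telencephalon markers were higher, and of the midbrain and hindbrain markers 1 was higher and 3 were lower. The part of these cell types in the levels of the Aldh1a genes was not tested.

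Cyp26a1 (chr19:37697798-37701536, plus strand), the enzyme that degrades retinoic acid and a known target of its receptors, had the largest steps from one sampled day to the next among the tested members. In WT it stood at 0.71 and 0.76 FPKM at day 0, 8.38 and 8.37 at day 2, 8.93 and 9.12 at day 4, and 11.5 and 10.8 at day 6. In KO it stood at 0.38 and 0.34 FPKM at day 0, 0.19 and 0.26 at day 2, 33.4 and 31.0 at day 4, and 0.12 and 0.17 at day 6. WT was thus high from day 2 on, whereas KO was below both WT libraries of the same day at days 0, 2 and 6 and above both at day 4.

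The fusion without Dex also peaked at day 4, with 0.79 and 0.69 FPKM at day 0, 0.51 and 0.60 at day 2, 30.0 and 30.5 at day 4, and 0.36 and 0.21 at day 6. Its mean was 2.06 times that of KO at day 0 (adjusted p = 0.00676) and 2.47 times at day 2 (adjusted p = 0.0122), and was not called different at days 4 and 6 (adjusted p = 0.59 and 0.199). The call at day 0 was lost without the first library of the fusion (adjusted p = 0.0549), and that at day 2 without the first KO library (adjusted p = 0.084) or the second library of the fusion (adjusted p = 0.085). With Dex the values were 0.38 and 0.83 FPKM at day 0, 0.95 and 0.73 at day 2, 4.70 and 4.59 at day 4, and 0.74 and 1.09 at day 6. The fusion with Dex therefore peaked at day 4 as well, at a level below that of the 3 other kinds of culture on that day, WT included. Ordered by level, the groups from KO at day 4 through the fusion without Dex at day 4, WT at days 6, 4 and 2 to the fusion with Dex at day 4 did not overlap with one another. From the fusion with Dex at day 6 downward, neighbours mostly overlapped.

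The KO mean of Cyp26a1 was lower than that of WT by a factor of 37.2 at day 2 (change −2.94, SE 0.10, adjusted p = 2.09e-14) and 77.0 at day 6 (change −3.41, SE 0.10, adjusted p = 4.46e-16). At day 4 it was 3.57 times that of WT (change 1.73, SE 0.10, adjusted p = 2.3e-11). The difference between the lines thus turned over between days 2 and 4 and turned back by day 6. Dex changed it by −2.47 at day 4 (SE 0.10, adjusted p = 9.42e-13), a factor of 6.5. At day 6 the fusion with Dex was above that without by 0.57 (adjusted p = 0.000139), at 8.20% of the WT mean. Within KO the rise from day 2 to day 4 was 4.76 (adjusted p = 4.6e-18) and the fall to day 6 was −4.86 (adjusted p = 1.53e-18). In the fusion without Dex these steps were 4.33 and −4.61 (adjusted p = 1.71e-17 and 3.4e-18). With Dex they were 1.62 and −1.57 (adjusted p = 3.9e-11 and 6.32e-11).

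Markers of extraembryonic endoderm, a lineage outside the embryo proper, stood lower in KO than in WT together with Cyp26a1 at days 2 and 6. All 10 of 10 markers were called lower in KO at days 2, 4 and 6, when 58.9%, 60.5% and 65.1% of all genes were called in either direction. Their summed level was 43.85 to 45.03 FPKM in WT and 12.06 to 12.64 in KO at day 0. It was 97.2 to 98.2 FPKM in WT and 7.68 to 8.05 in KO at day 2, 76.3 to 79.9 and 13.3 to 13.6 at day 4, and 121 to 123 and 15.67 to 15.98 at day 6. Among the defining ones at day 6, Gata4 was at 0.04 and 0.08 FPKM and Gata6 at 0.02 and 0.03 in KO, against 9.79 and 10.2, and 6.36 and 5.71, in WT. At day 4, when Cyp26a1 was higher in KO, Gata4 was at 0.42 and 0.36 FPKM in KO and 5.95 and 5.91 in WT. In the fusion the summed level of the 10 markers at day 4 was 13.85 to 14.33 FPKM without Dex and 16.64 to 17.67 with Dex. At day 6 it was 11.05 to 11.44 FPKM without Dex and 18.05 to 19.28 with Dex. Cyp26a1 was lower with Dex than without at day 4 and higher at day 6. The part of extraembryonic endoderm cells in the levels of Cyp26a1 was not tested at any day.

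Cyp26b1 (chr6:84571414-84593908, minus strand), a second enzyme of the same family, ranged from 0.01 to 0.46 FPKM over the 32 libraries and was not tested with the other genes. Its highest levels were 0.46 and 0.44 FPKM in the fusion without Dex at day 4 and 0.43 in both WT libraries at day 6. At day 4 it stood at 0.07 and 0.09 FPKM in WT, 0.25 and 0.30 in KO, and 0.24 and 0.21 with Dex. Without the filter on low values, limma gave a change of 0.24 from WT to KO at day 4 (SE 0.03, adjusted p = 6.65e-06) and of −0.24 with Dex against without at day 4 (SE 0.03, adjusted p = 1.56e-05). Both enzymes of breakdown were thus higher in KO than in WT at day 4, and both were lower with Dex than without at that day. At day 2 Cyp26b1 was also higher in KO in that fit (0.17 and 0.20 FPKM against 0.08 and 0.03 in WT, change 0.17, adjusted p = 0.000379), while Cyp26a1 was lower. At day 6 both were lower in KO (Cyp26b1 change −0.11, adjusted p = 0.0104).

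Dhrs3 (chr4:144892827-144928209, plus strand), which reduces retinal back to retinol and is a known target of retinoic acid, was the only member highest in stem cells. At day 0 it stood at 1.70 and 2.46 FPKM in WT, 2.84 and 2.36 in KO, 4.36 and 3.80 in the fusion without Dex, and 2.41 and 3.06 with Dex. At day 2 all 8 libraries lay between 0.26 and 0.56 FPKM, below every day 0 library. The fall from day 0 to day 2 was −1.15 in WT (SE 0.12, adjusted p = 1.12e-07), −1.34 in KO (adjusted p = 1.13e-08), −1.77 in the fusion without Dex (adjusted p = 1.75e-10) and −1.41 with Dex (adjusted p = 6.37e-09). Dhrs3 RNA thus fell in all 4 kinds of culture over the first 2 days. At day 4 it was listed at 1.15 and 0.77 FPKM in WT, 1.43 and 1.5 in KO, 1.08 and 0.99 without Dex, and 0.48 and 0.55 with Dex. KO libraries were the highest and Dex libraries the lowest at that day. At day 6 WT held 1.12 and 0.87 FPKM, and the 6 libraries of the other kinds held 0.26 to 0.52. The fusion with Dex was below WT at day 6 with a change of −0.60 (SE 0.12, adjusted p = 0.000353). The call for KO at that day (change −0.41, adjusted p = 0.00647) was lost without the first WT library (change −0.32, adjusted p = 0.0754).

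**Figure D3:**
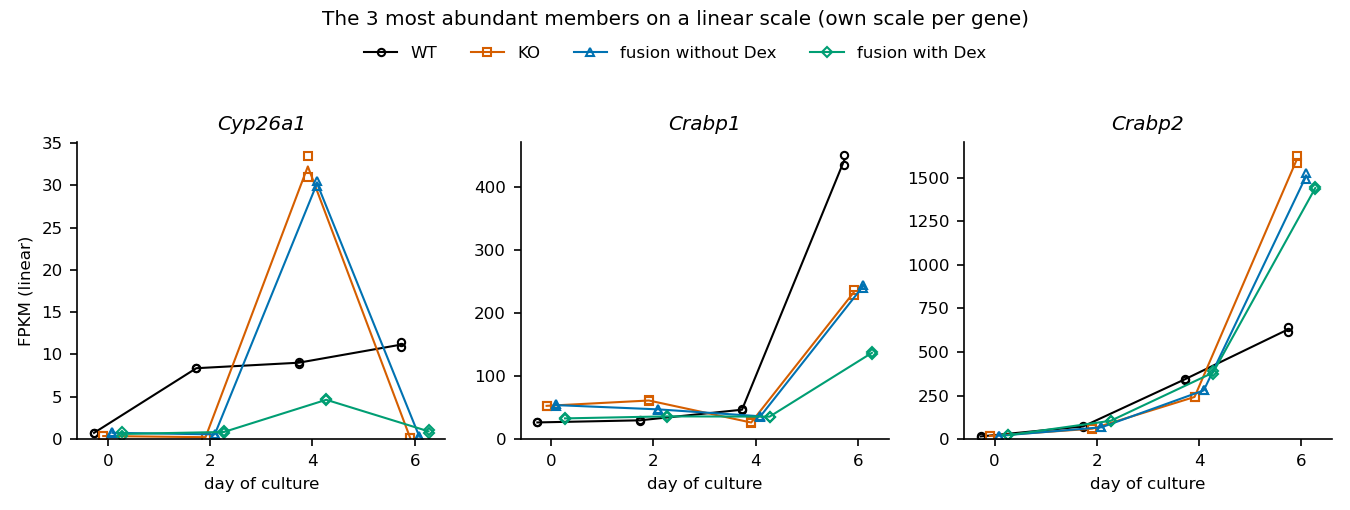
FPKM of Cyp26a1, Crabp1 and Crabp2 on linear scales, 1 scale per gene, against day of culture, with points for libraries and lines through the means of 2 libraries. Cyp26a1 had its peak of 30.0 to 33.4 FPKM at day 4 in KO and the fusion without Dex, and at day 6 Crabp1 was highest and Crabp2 lowest in WT.

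Crabp1 (chr9:54764748-54773110, plus strand), which binds retinoic acid in the cytoplasm, was at 25.9 FPKM or more in every library. In WT it stood at 26.5 and 26.3 FPKM at day 0, 30.3 and 29.2 at day 2, 47.5 and 45.6 at day 4, and 449.8 and 435.0 at day 6. In KO it stood at 52.9 and 52.6 FPKM at day 0, 61.4 and 61.0 at day 2, 25.9 and 26.6 at day 4, and 236 and 228 at day 6. KO was above WT at days 0 and 2 and below it at days 4 and 6, with no overlap at any day. The changes were 0.97 at day 0 (adjusted p = 6.04e-13), 1.02 at day 2 (adjusted p = 6.53e-14), −0.80 at day 4 (adjusted p = 1.12e-12) and −0.93 at day 6 (adjusted p = 6.59e-14), each with an SE of 0.04.

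In the fusion without Dex, Crabp1 had 55.7 and 52.1 FPKM at day 0, 45.8 and 48.5 at day 2, 37.1 and 35.2 at day 4, and 239 and 244 at day 6. With Dex it had 31.5 and 34.1 FPKM at day 0, 36.3 and 35.8 at day 2, 35.5 and 35.7 at day 4, and 135 and 139 at day 6. Dex libraries were thus the lower ones at days 0, 2 and 6 and overlapped the others at day 4. The changes of Crabp1 with Dex against without were −0.70 at day 0 (adjusted p = 6.86e-11), −0.38 at day 2 (adjusted p = 2.23e-07) and −0.82 at day 6 (adjusted p = 4.14e-12). Dex at day 0 is known from the label alone, since the protocol lists it only for later days. At day 0 Crabp1 with Dex was nearer to WT than without. At day 6 it stood further from WT than without Dex, at 30.9% of the WT mean against 54.6%.

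Crabp2 (chr3:87948666-87953376, plus strand), which carries retinoic acid to its receptors and is a known target of it, rose from 14.2 to 22.7 FPKM at day 0 to 616 to 1623 FPKM at day 6. In WT it stood at 16.2 and 14.2 FPKM at day 0, 72.8 and 71.9 at day 2, 341 and 347 at day 4, and 640.2 and 616 at day 6. In KO it stood at 18.3 and 18.4 FPKM at day 0, 57.7 and 61.4 at day 2, 242 and 241 at day 4, and 1623 and 1586 at day 6. KO lay above WT at day 0, below it at days 2 and 4, and was 2.55 times WT at day 6.

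The 16 groups of Crabp2 could be put in order with no overlap between neighbours, from KO at day 6 down to WT at day 0. The change from WT to KO was 0.26 at day 0 (adjusted p = 3.48e-05), −0.28 at day 2 (adjusted p = 9.25e-06), −0.51 at day 4 (adjusted p = 2.15e-09) and 1.35 at day 6 (adjusted p = 5.73e-16), each with an SE of 0.04. The direction between the lines thus turned between days 0 and 2 and again between days 4 and 6. At day 6 the fusion had 1491 and 1524 FPKM without Dex and 1437 and 1444 with Dex, all above WT. At days 2 and 4 the fusion with Dex, at 106 and 104 and at 389.8 and 372 FPKM, was above that without, at 68.6 and 66.5 and at 279.6 and 279.1 FPKM. The changes with Dex against without were 0.23 at day 0, where Dex is known from the label alone (adjusted p = 0.000155), 0.63 at day 2 (adjusted p = 8.12e-10) and 0.45 at day 4 (adjusted p = 6.29e-08). WT at day 6 thus held the highest Crabp1 and the lowest Crabp2 of the 4 kinds of culture.

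Rarb (chr14:16430839-16819156, minus strand), the retinoic acid receptor whose promoter window held the repeat printed above, was listed at 0 in 8 of 32 libraries. Its highest value was 0.68 FPKM in 1 KO library at day 6, whose partner had 0.11. All other libraries lay at or below 0.28 FPKM. Its exons overlap those of Top2b on the opposite strand over 1793 bases, Top2b reached 40.4 FPKM, and the strand setting of the counting is not given in the sources used here. The levels of Rarb are therefore uncertain. Without the filter on low values, limma gave a change of 0.31 from WT to KO at day 6 (SE 0.13, adjusted p = 0.0666).

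Counts over the members are set beside the share of the 16276 tested genes called in the same comparison. Of the 9 members, 7 passed the filter of 1 FPKM in 2 libraries. Aldh1a1 reached that level in WT at day 6 alone, Aldh1a3 also in 1 library with Dex at day 6, and Aldh1a2 also in 1 library with Dex at day 4. For each of these genes the 2 WT libraries at day 6 were enough to pass. Their differences from WT at that day had to arise, so the counts at day 6 describe the members and support nothing further.

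Between KO and WT, 3 members passed the test on day 0, where 48.2% of all tested genes did, 3 on day 2 (58.9% of all genes), 5 on day 4 (60.5%) and 7 on day 6 (65.1%). At day 6 Crabp2 was higher and the 6 others were lower. With a change of at least 1 as well, the counts were 0 at day 0 (1.37% of all genes), 2 at day 2 (Cyp26a1 and Crabp1, 4.72%), 1 at day 4 (Cyp26a1, 5.54%) and 4 at day 6 (10.0%). Those at day 6 were Cyp26a1, Aldh1a1, Aldh1a3 and Crabp2.

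Between the fusion without Dex and KO, 2 members passed on day 0 (49.1% of all genes), 3 on day 2 (37.0%), 2 on day 4 (26.7%) and 2 on day 6 (49.0%). With a change of at least 1 the counts were 0 at day 0 (1.36% of all genes), day 2 (0.295%), day 4 (0.233%) and day 6 (2.03%). The count at day 0 was 1 without the first library of the fusion. That at day 6 was 0 without the first KO library and 1 without either library of the fusion.

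Between Dex and no Dex, 3 members passed on day 0 (43.4% of all genes), 2 on day 2 (44.3%), 4 on day 4 (40.2%) and 4 on day 6 (42.7%). With a change of at least 1, Cyp26a1 at day 4 was the only one (0.915% of all genes at that day), and there were 0 at day 0 (0.498%), day 2 (0.467%) and day 6 (1.52%). Between the fusion with Dex and WT, 2 passed on day 0 (49.8% of all genes), 3 on day 2 (29.4%), 5 on day 4 (44.7%) and 7 on day 6 (61.4%). The 5 at day 4 were 3 without the first WT library or without the first Dex library. KO and the fusion with Dex share their WT libraries in these comparisons. At day 6, for example, Aldh1a3 stood at −3.56 in KO and −2.74 in the fusion with Dex relative to WT, Cyp26a1 at −3.41 and −2.67, and Crabp2 at 1.35 and 1.20. Crabp1, at −0.93 and −1.69, Aldh1a2, at −0.90 and −1.10, and Dhrs3, at −0.41 and −0.60, had the larger change in the fusion with Dex.

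**Figure D4:**
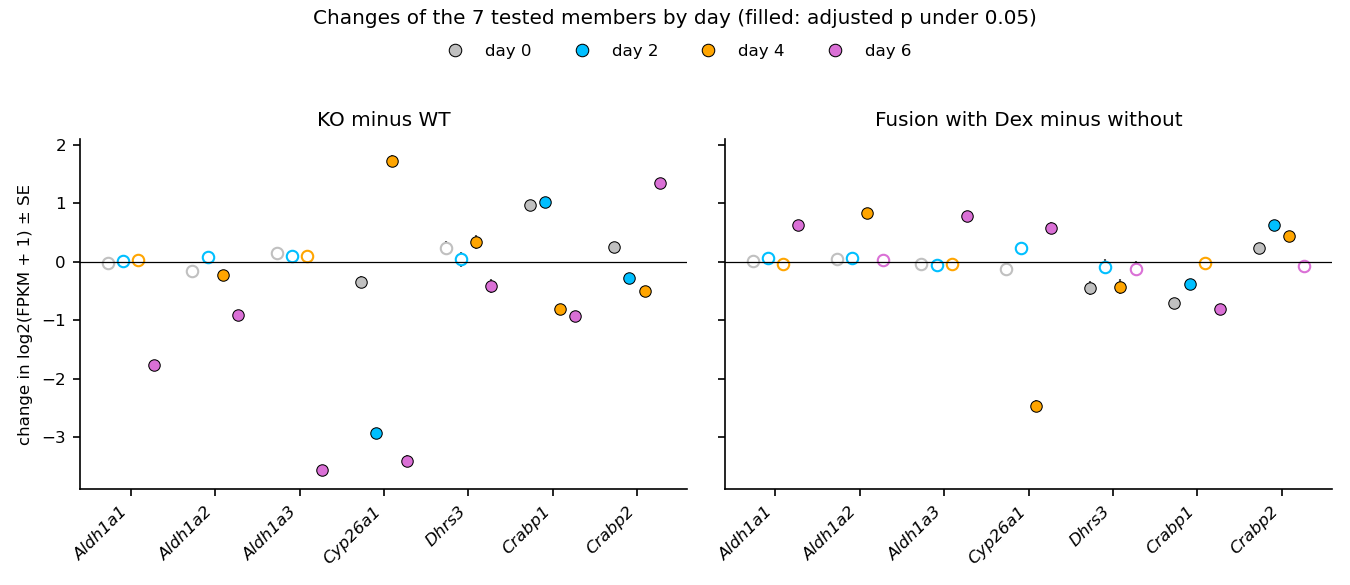
Change in log2(FPKM + 1), with its SE, of the 7 tested members at days 0, 2, 4 and 6, for KO minus WT and for the fusion with Dex minus without. Filled points passed an adjusted p of 0.05, and the largest changes in KO minus WT were those of Aldh1a3 and Cyp26a1 at day 6, and with Dex that of Cyp26a1 at day 4.

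From one day to the next in WT, 5 members changed from day 0 to day 2 (63.4% of all tested genes), 4 from day 2 to day 4 (59.9%) and 6 from day 4 to day 6 (66.7%). In KO the counts were 3 (65.6%), 4 (64.2%) and 4 (65.3%). They were 4 (67.9%), 4 (60.8%) and 5 (67.9%) in the fusion without Dex, and 4 (60.6%), 3 (66.7%) and 6 (65.1%) in the fusion with Dex. With most genes of the table called at every step, these counts are no result about the members as a group. The step of Crabp1 from day 4 to day 6 was 3.22 in WT (ratio of means 9.50), 3.10 in KO (8.84), 2.71 in the fusion without Dex (6.69) and 1.91 with Dex (3.84). That of Crabp2 was 0.87 in WT (ratio 1.82), 2.73 in KO (6.64), 2.43 without Dex (5.40) and 1.92 with Dex (3.78).

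Whether a difference between lines itself changed from day 2 to day 6 was tested as an interaction. For KO against WT it was called for 7 members (51.3% of all genes), with Crabp1 at −1.94 and Crabp2 at 1.63. The 3 Aldh1a genes among the 7 had to differ, since they entered through WT at day 6. The call for Dhrs3 (−0.46, adjusted p = 0.0368) was lost without any 1 of 7 libraries (adjusted p = 0.0598 to 0.139), under rescaling (0.0712) and without the filter (0.0723). For Dex against no Dex it was called for 4 (39.7%), namely Aldh1a3 (0.84), Crabp2 (−0.69), Aldh1a1 (0.58) and Crabp1 (−0.44).

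Among themselves, the members shared patterns only in part. Over the 16 group means of log2(FPKM + 1), Pearson's r was 0.97 between Aldh1a1 and Aldh1a3, 0.63 between Aldh1a2 and Aldh1a3, 0.66 between Crabp1 and Crabp2, and −0.66 between Crabp2 and Dhrs3. That of Cyp26a1 with the other members ranged from −0.53 (Rarb) to 0.41 (Cyp26b1). These values are descriptions over groups that share lines and days. The genes with the most similar course over the 16 means, among 13667 compared, were Rbp4 (r = 0.844) and Lpl (0.836) for Cyp26a1, Kcnip1 (0.995) and Six6 (0.988) for Aldh1a1, Atp6v1b1 (0.998) and Cdr1os (0.994) for Aldh1a3, and Zxda (0.841) and Eno4 (0.835) for Aldh1a2. For Crabp1 they were Zfp672 (0.948) and Luzp2 (0.946), for Crabp2 Mfap2 (0.993) and Pea15a (0.990), and for Dhrs3 Plscr1 (0.936) and BB287469 (0.932). For the members below 1 FPKM they were Csrnp3 (0.884) and Clvs1 (0.854) with Rarb, and Cpq and Lrrk1 (0.924 each) with Cyp26b1. Rbp4, the carrier of retinol in blood, lies on the same chromosome as Cyp26a1, with 415 kb between their annotated ends (chr19:38116629-38125281, minus strand).

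The wider pathway was described with 55 further genes, 42 of which were tested. Apart from the receptors, those named below were picked for the size of a called change, so their small p-values follow from that choice. Of these 42, 35 (83.3%, against 65.1% of all genes) were called between KO and WT at day 6, 20 higher and 15 lower, with a median change of 0.11 against −0.03 over all genes. Between Dex and no Dex at day 6 there were 25 (59.5%, against 42.7%), 18 higher and 7 lower, with a median of 0.07 against 0.01. From day 4 to day 6 in WT there were 38 (90.5%, against 66.7%), 28 higher and 10 lower.

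Receptors stood higher in KO than in WT at day 6 in 6 of 6 cases (65.1% of all genes were called). Rara was at 10.9 and 9.98 FPKM in WT and 21.6 and 22.5 in KO (change 1.01, SE 0.04, adjusted p = 1.33e-13). The partner receptors Rxra (change 0.41), Rxrb (0.44) and Rxrg (0.61), the nuclear receptor Ppard (0.64) and Rarg (0.14) followed with smaller changes. In the fusion without Dex, 5 of the 6 were lower and 1 was higher than in KO at day 6 (49.0% of all genes were called). The summed level of the 6 at day 6 was 85.8 to 86.1 FPKM in WT and 124.8 to 129.4 in KO. In the fusion it was 86.5 to 87.0 FPKM without Dex and 117.7 to 119.1 with Dex. With Dex, 5 of the 6 were higher than without at day 6 (42.7% of all genes were called). The largest changes were those of Ppard (1.10, SE 0.09, adjusted p = 9.89e-09) and Rxrg (0.82, SE 0.07, adjusted p = 2.88e-08). Rxra had 13.7 and 13.6 FPKM without and 15.2 in both libraries with Dex. Rarg, the most abundant receptor of stem cells at 119 to 126 FPKM in WT at day 0, was at 6.80 and 7.22 FPKM in WT at day 6.

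Of 6 tested genes of uptake and transport, 4 were lower and 1 was higher in KO at day 6 (65.1% of all genes were called). The 4 were 3 under rescaling, with the pseudocount of 0.1 and without the filter. Ttr, a carrier of the retinol complex and itself 1 of the 10 endoderm markers, was at 3.79 and 3.78 FPKM in WT and at 0.03 and 0 in KO (change −2.24, adjusted p = 2.31e-15). Rbp4 was lower as well (change −2.0, SE 0.26, adjusted p = 1.38e-06).

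With Dex, 4 of the 6 tested transport genes were higher at day 6 and none was lower (42.7% of all genes were called). Stra6, the membrane receptor for retinol uptake, rose from 3.41 and 3.75 FPKM to 12.9 and 13.4 (change 1.63, SE 0.09, adjusted p = 3.63e-11). Rlbp1, a retinal-binding protein of pigment epithelium and glia, rose from 2.01 and 1.92 FPKM to 6.12 and 6.35 (change 1.29, SE 0.10, adjusted p = 5.13e-09). All 4 tested markers of pigment cells were higher with Dex at day 6 too, and the sum of 6 was 1.81 to 2.09 FPKM without Dex and 102 to 104 with it. Their part in the levels of Stra6 and Rlbp1 was not tested.

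Genes known to respond to retinoic acid gave 8 higher and 4 lower of 14 tested between KO and WT at day 6. In that comparison 65.1% of all genes were called in either direction. Of the 14, 6 were higher and 4 lower with the pseudocount of 0.1, and 8 higher and 3 lower under rescaling or with the replicate block. Nr2f2, a nuclear receptor of the COUP family, stood at 31.0 and 32.2 FPKM in WT and 95.2 and 98.1 in KO (change 1.58, SE 0.06, adjusted p = 4.95e-14). In WT it had risen by 4.74 from day 4 to day 6, beside its relative Nr2f1 (6.26) and the homeobox genes Meis1 (4.24) and Meis2 (3.20). Nr2f1 reached 95.0 and 91.9 FPKM in WT and 176 and 183 in KO at day 6. Neuron markers were higher in KO at that day in 5 of 5 cases, with sums of 46.0 to 48.3 FPKM in WT and 305 to 308 in KO. Neural crest markers were also higher in 5 of 5, with 3.37 to 3.61 FPKM in WT and 34.6 to 36.5 in KO. Their part in the levels of Nr2f1, Nr2f2 and Crabp2 was not tested.

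**Figure D5:**
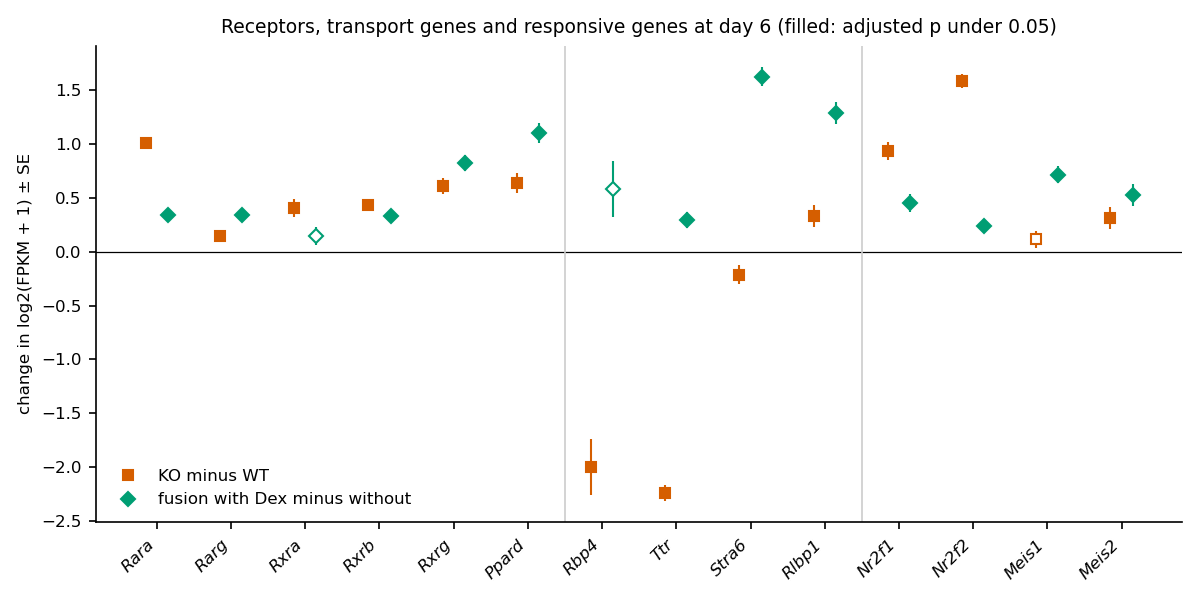
Change in log2(FPKM + 1), with its SE, at day 6 for 6 receptors (left), 4 transport genes (middle) and 4 responsive genes (right), for KO minus WT and for the fusion with Dex minus without. Filled points passed an adjusted p of 0.05. Rbp4 and Ttr were the genes well below 0 in KO, and Stra6 and Rlbp1 had the highest changes with Dex.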

How the data were processed

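Polyadenylated RNA of 32 libraries, 2 for each of 16 groups, was read as paired ends on an Illumina NovaSeq, per the labels. The authors deposited 1 table of FPKM values for 55492 gene rows, and the unit is taken from the name and values of the table. The submitters' processing notes list STAR, Cuffdiff and the mm10 build without versions. The annotation, the strand setting and the treatment of multiply mapped reads are not given in the sources used here. Per the labels' protocols, the 2 libraries of a group went through separate library preparation and sequencing, and all carry a single batch date.

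Groups came from the labels. Genes with at least 1 FPKM in at least 2 libraries were kept, which left 16276, including 7 of the 9 members. Values were set to log2(FPKM + 1) and fitted with limma 3.58.1 in R 4.3.3, with 1 mean per group over all 32 libraries (16 residual degrees of freedom), a mean-variance trend and Benjamini-Hochberg adjustment over all genes kept. A gene was called at an adjusted p under 0.05, and a second count also asked for a change of at least 1. The fit was tested on simulated data. Alternatives were a pseudocount of 0.1, no filter, a mean of at least 5 FPKM, median-of-ratios rescaling, the replicate number as a block, and leaving out each library. Duplicates correlated at r = 0.9922 to 0.9955.

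Depth was estimated from the steps of 1 fragment in low FPKM values of 6067 single-transcript genes, where 86.0% to 89.5% of values lay within 0.2 of a whole fragment (40% by chance). The estimate covers depth only, and no counts were tested. Gene positions are from GENCODE M21 (GRCm38), which held 99.4% of the rows, and promoters from RefSeq (GRCm38.p6).

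The members, the lists of other genes and the comparisons were chosen with earlier results of these data known. Named genes are the 9 members, Mettl3, the receptors, at most 4 other pathway genes with the largest called change in each of 3 comparisons (KO against WT and Dex against no Dex at day 6, WT day 6 against day 4), the 2 genes most like each member, and markers of lists that moved with a member. One gene of the pathway lists is not reported here and was left out of the counts by list.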

Additional observations from a re-analysis of the deposited data

Results flagged for a closer look

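For 4 members the difference between KO and WT at day 6 was not that at day 2, by limma's test of the interaction. The change of the difference was −1.94 for Crabp1 (adjusted p = 5.99e-16), 1.63 for Crabp2 (1.98e-14), −0.47 for Cyp26a1 (0.0101) and −0.46 for Dhrs3 (0.0368). It was −3.64 for Aldh1a3, −1.78 for Aldh1a1 and −0.98 for Aldh1a2, which passed the filter through WT at day 6, so these had to differ and are given as values with no test. Crabp1 and Crabp2 changed sides: Crabp1 was higher in KO at day 2 and lower at day 6, and Crabp2 the reverse. For Cyp26a1 the interaction between days 2 and 6 passes over day 4, when KO was the higher line. Its call was lost under rescaling (−0.29, adjusted p = 0.104). That of Dhrs3 was lost under rescaling (adjusted p = 0.0712), without the filter (0.0723) and without any 1 of 7 libraries of WT and KO at days 2 and 6 (0.0598 to 0.139).

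Between Dex and no Dex the interaction was called for 4 members. It was 0.84 for Aldh1a3 (adjusted p = 5.5e-07), −0.69 for Crabp2 (1.8e-08), 0.58 for Aldh1a1 (5.32e-06) and −0.44 for Crabp1 (2.73e-06). For Crabp2 the rise with Dex at day 2 (104 and 106 FPKM against 66.5 and 68.6) was followed at day 6 by levels of 1437 and 1444 FPKM with Dex and 1491 and 1524 without.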

How the results depend on the processing

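No called change of a member reversed under any alternative, and reversals were limited to changes that were not called (53 on leaving out a library, 3 under rescaling and 1 with a pseudocount of 0.1). With the replicate number as a block, all 120 called changes of members were still called and none of the 90 others became called. The counts over all genes under that block were 0.991 to 1.001 times the main ones. The replicate numbers did not pair the libraries, since the differences between duplicates correlated at −0.088 to 0.125 over 120 pairs of groups. Of the 120 calls, 5 were lost under rescaling, 2 without the filter and 2 with the pseudocount of 0.1, and 38 times a call was lost on leaving out a library. These concerned Dhrs3, Aldh1a2, small changes of Cyp26a1 (WT from day 4 to day 6, fusion without Dex against KO), Aldh1a1 in the fusion without Dex against KO at day 6, Crabp2 in the fusion with Dex against WT at day 4 (0.10 under rescaling, adjusted p = 0.0521), and Crabp1 with Dex from day 0 to day 2. A mean of at least 5 FPKM left 3 members (Cyp26a1, Crabp1 and Crabp2). The members called were then 3 at day 4 and 3 at day 6 for KO against WT, 1 at day 0 and 0 at day 6 for the fusion without Dex against KO, 2 at days 4 and 6 for Dex against no Dex, and 3 at days 4 and 6 for the fusion with Dex against WT. For the steps they were 3, 2 and 3 in WT, 2 (day 0 to 2) and 3 (day 4 to 6) in the fusion without Dex and likewise 2 and 3 with Dex, and for the interactions 3 (KO against WT) and 2 (Dex against no Dex). Fewer members tested accounts for these counts by construction. Rescaling gave 5 members for the fusion without Dex against KO at day 0. Leaving out a library gave 1 to 3 members there, 0 to 2 for the same comparison at day 6, and 3 to 5 for the fusion with Dex against WT at day 4. With a mean of at least 5 FPKM, the counts over all genes also fell by more than 1.5 times in 11 comparisons, to between 5265 and 7339. Rescaling moved the median interaction of KO against WT over all genes from −0.09 to 0.01 and that of Rxrb from day 4 to day 6 in WT below the threshold (0.04, adjusted p = 0.479). Depth limits the members below 0.1 FPKM, and the levels of Rarb in particular.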
